A study of Mus musculus with 18 samples.

Results

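Interferons are secreted proteins that bind receptors on the cell surface and switch on many genes whose products sense, block or break down foreign nucleic acid. Type I interferons act through IFNAR1 and IFNAR2, and the kinases JAK1 and TYK2 then activate factors, among them STAT2 and IRF9, that bind the interferon-stimulated response element (ISRE) in promoters. Type II interferon (interferon gamma) acts through IFNGR1 and IFNGR2, and its signal ends at the gamma-activated sequence (GAS). Such genes are known to be switched on after kidney injury as well as in infection.

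The genes described here are 40 interferon response genes, taken by symbol from the 37991 gene identifiers in the count tables of a mouse kidney time course. All 40 were found, and all 40 passed the filter on low counts that left 16824 genes in the test. They fall by role into 6 sensors of nucleic acid, 4 transcription factors, 3 IFIT proteins, 5 members of the OAS family, 2 genes of the ISG15 system, 2 Mx GTPases, 6 GTPases known for induction by interferon gamma, 2 membrane restriction factors, 2 nucleotide enzymes and 8 others. The series holds 18 RNA-seq libraries, in 6 groups of 3, made from whole frozen kidneys of mice that were male and of strain Balb/c. The groups are untreated kidney, with no agent given, and kidney taken 1, 2, 3, 7 and 14 days after 1 intraperitoneal injection of folic acid at 250 mg/kg in 0.3 M sodium bicarbonate. This dose injures the renal tubule. No mouse carried a named allele, the treated mice weighed 25 to 29 g, and age is not given in the labels. No group received bicarbonate alone, so folic acid and its vehicle cannot be told apart. The labels do not say that the libraries of a group came from separate animals, so p-values measure the spread between these libraries, which may be technical.

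Libraries held 8.68 to 54.6 M reads on genes (M, 1000000 reads), of which 59.0 to 75.6% fell on mitochondrial genes. The other nuclear genes therefore had 2.83 to 17.2 M reads, and the 40 genes together 1866 to 17958. The shallowest library was day 2 replicate 2, in which 6 of the 40 had no read; the other libraries had at most 1 such gene. Transcripts of tubule and podocyte were present throughout, with Lrp2, the endocytic receptor of the proximal tubule, at 388 to 2180 CPM. Levels are given as counts per 1000000 reads (CPM) with TMM scaling, which sets the bulk of genes level between libraries. A gene is said to rise or fall where edgeR's quasi-likelihood F test gave a Benjamini-Hochberg adjusted p under 0.05 over all 16824 genes, and fold changes come from that fit, each with a standard error (SE). The 3 values of a group are listed in the order of replicates 1, 2 and 3. In whole tissue, a change in the number of cells of a type and a change in RNA per cell cannot be told apart.

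Promoter sequences were looked up to show how many of the genes carry the letters of the elements that interferon-activated factors bind. RefSeq promoters of mouse build GRCm38.p6, from 250 bases before to 50 after a transcript start, were held for 30 of the 40 genes. The ISRE was searched on both strands as GAAA, any 2 bases and GAAA again, and the GAS as TTCNNNGAA, also on both strands, and matches may overlap. At least 1 ISRE match stood in 18 of the 30 genes (60%), against 1079 of 27025 genes in the table (3.99%). A GAS match stood in 10 of the 30 (33.3%), against 2582 genes (9.55%), and both motifs in 6 of the 30 (20%), against 0.540% of genes. All 5 of the interferon-gamma-inducible GTPases with a promoter entry held an ISRE match. Of the genes that passed a test below, 11 had an entry and 8 of these held an ISRE match, while 10 of the 19 that passed none did. No entry was held for Dhx58, Zbp1, Oas2, Usp18, Mx1, Mx2, Iigp1, Ifi27l2a, Parp14 and Rtp4. A match describes the letters only.

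The 250 bases before the start are printed below for Gbp3 and Ifit2, which rose on the most days, and Rsad2, which fell on the most days. Ifit1 and Isg15, which passed no test, were added for contrast after their values were seen. Capitals mark an ISRE match, except in Ifit2, where they mark a GAS match. Gbp3 (chr3:142559794-142560043, plus strand, the first of 2 starts) has a pair of overlapping ISRE matches that begin 45 and 39 bases before the start. Ifit2 (chr19:34550444-34550693, plus strand, the first of 2 starts) has its GAS match 241 bases before the start and no ISRE match at either start. Rsad2 (chr12:26456453-26456702, minus strand) has 1 ISRE match 120 bases before the start. Ifit1 (chr19:34640639-34640888, plus strand) has ISRE matches 104 and 85 bases before the start. Isg15 (chr4:156200819-156201068, minus strand) has 3 overlapping ones at 78, 72 and 66 bases.
Gbp3: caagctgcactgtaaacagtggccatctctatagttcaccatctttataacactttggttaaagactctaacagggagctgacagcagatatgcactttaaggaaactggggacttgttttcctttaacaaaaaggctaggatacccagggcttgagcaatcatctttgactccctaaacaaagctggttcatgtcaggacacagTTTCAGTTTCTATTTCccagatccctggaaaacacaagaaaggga
Ifit2: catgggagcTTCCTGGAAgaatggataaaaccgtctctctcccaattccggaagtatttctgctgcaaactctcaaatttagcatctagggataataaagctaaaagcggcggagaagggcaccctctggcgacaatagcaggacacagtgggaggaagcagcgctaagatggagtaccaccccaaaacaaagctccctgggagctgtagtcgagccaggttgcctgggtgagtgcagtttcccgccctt
Rsad2: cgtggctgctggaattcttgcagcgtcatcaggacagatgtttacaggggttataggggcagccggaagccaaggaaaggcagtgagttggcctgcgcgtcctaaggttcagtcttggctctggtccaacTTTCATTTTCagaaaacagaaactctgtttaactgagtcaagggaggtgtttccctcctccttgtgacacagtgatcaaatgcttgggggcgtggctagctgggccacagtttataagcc
Ifit1: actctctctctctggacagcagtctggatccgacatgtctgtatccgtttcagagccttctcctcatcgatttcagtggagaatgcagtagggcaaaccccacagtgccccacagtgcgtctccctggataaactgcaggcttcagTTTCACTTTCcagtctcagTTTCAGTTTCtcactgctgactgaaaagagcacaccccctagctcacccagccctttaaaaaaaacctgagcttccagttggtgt
Isg15: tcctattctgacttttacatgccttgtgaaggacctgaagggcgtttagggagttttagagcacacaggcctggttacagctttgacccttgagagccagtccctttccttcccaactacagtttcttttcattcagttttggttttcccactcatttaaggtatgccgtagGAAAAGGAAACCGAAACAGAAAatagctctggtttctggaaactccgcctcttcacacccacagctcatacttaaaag
Among these printed promoters, 2 or 3 ISRE matches stood both in the gene that rose on the most days and in Ifit1 and Isg15. As Ifit1 and Isg15 were picked for contrast, this cannot show how matches relate to calls.

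Compared with untreated kidney, interferon response genes rose in small numbers on every day, most of all on day 3. On day 1, 3 rose (Gbp3, Ifih1 and Ddx58) and 1 fell (Rsad2), where 5.09% and 5.56% of all genes tested rose and fell. On day 2, 3 rose (Gbp3, Ifit2 and Stat2) and 1 fell (Rsad2), against 7.19% and 5.98% of all genes. The day 3 list held 8 that rose, or 20% of the 40, against 4.18% of all genes: Gbp3, Gbp2, Gbp7, Ifit2, Ifih1, Ddx58, Oas2 and Parp14. None fell on day 3, where 3.43% of all genes did. On day 7, 3 rose (Gbp3, Gbp2 and Ifit2), against 3.87%, and none fell, against 3.85%. On day 14 only Mx1 rose, against 1.24% of all genes, and none fell, against 0.309%. The shares of members that rose on days 1, 2, 7 and 14 (7.5, 7.5, 7.5 and 2.5%) were near those of all genes. Leaving out any single library gave 2 to 5 calls on day 3 in place of 8, 1 to 4 on day 1, 3 to 6 on day 2, 2 to 3 on day 7 and 0 to 1 on day 14.

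**Figure D1:**
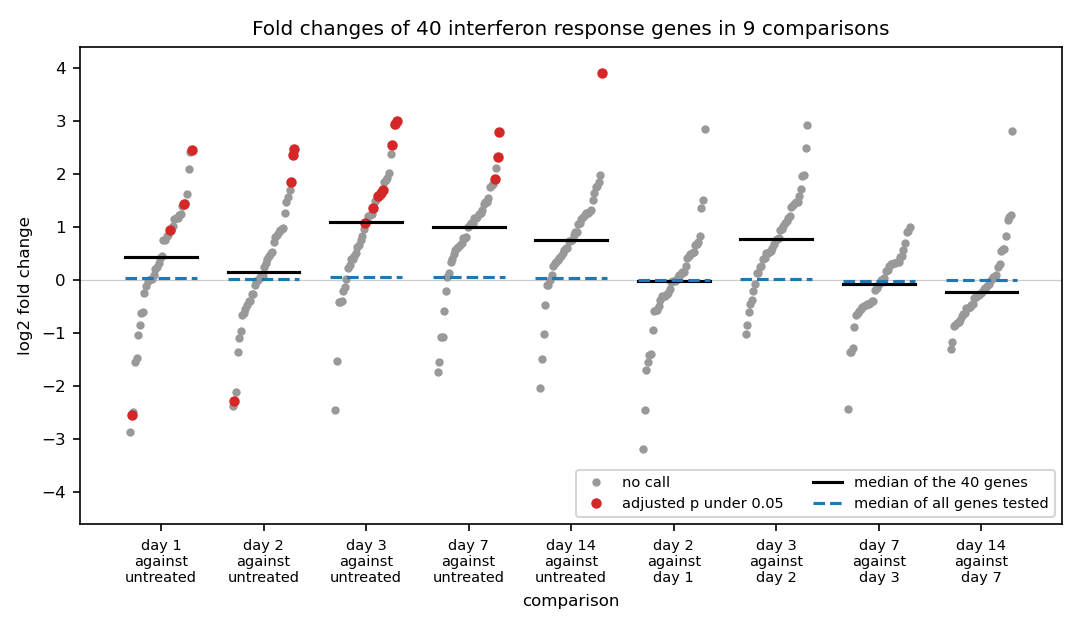
Log2 fold change of the 40 genes in each of the 9 comparisons (1 point per gene; red, adjusted p under 0.05; bar, median of the 40). The cloud lies around a median of 0.16 on day 2 and 1.10 on day 3 against untreated, and no point is red between consecutive times.

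The size of the changes stayed up after day 3, while the number of calls fell back. The median log2 fold change of the 40 against untreated was 0.44 on day 1, 0.16 on day 2, 1.10 on day 3, 1.01 on day 7 and 0.75 on day 14, while that of all genes stayed between 0.03 and 0.07. The number of members above 0 was 28, 23, 33, 34 and 34 of 40 on the 5 days. The day 2 median was below 0 without untreated replicate 3 (-0.03) or day 2 replicate 3 (-0.06). All 3 libraries of a day lay above all 3 untreated ones for 5, 7, 14, 17 and 12 members in turn, where this held for 16.1, 13.2, 14.8, 14.9 and 11.7% of all genes. Hence 35%, 42.5% and 30% of members did not overlap upward on days 3, 7 and 14, and 12.5% and 17.5% on days 1 and 2. Downward, 3, 3, 1, 1 and 2 members did not overlap, against 15.1, 14.8, 13.7, 13.6 and 10.2% of all genes. These 5 comparisons share the 3 untreated libraries.

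Library by library the step lay between day 2 and day 3. In the 6 libraries of days 1 and 2, 11 to 17 of the 40 lay above the untreated range and 5 to 15 below it. In the 6 libraries of days 3 and 7, 20 to 27 lay above and 1 to 5 below. The day 14 libraries had 25, 17 and 29 above, so replicate 2 stood with the early days. Of all genes tested, 28.6 to 34.8% lay above the untreated range in each of these libraries and 26.7 to 39.7% below. Summed over the 40, the level was 247 to 265 CPM in untreated kidney, 295 to 357 on day 1, 279 to 315 on day 2, 333 to 466 on day 3, 322 to 422 on day 7 and 307 to 355 on day 14. Samd9l was the most abundant member in CPM, at 49.3 to 138 CPM.

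**Figure D2:**
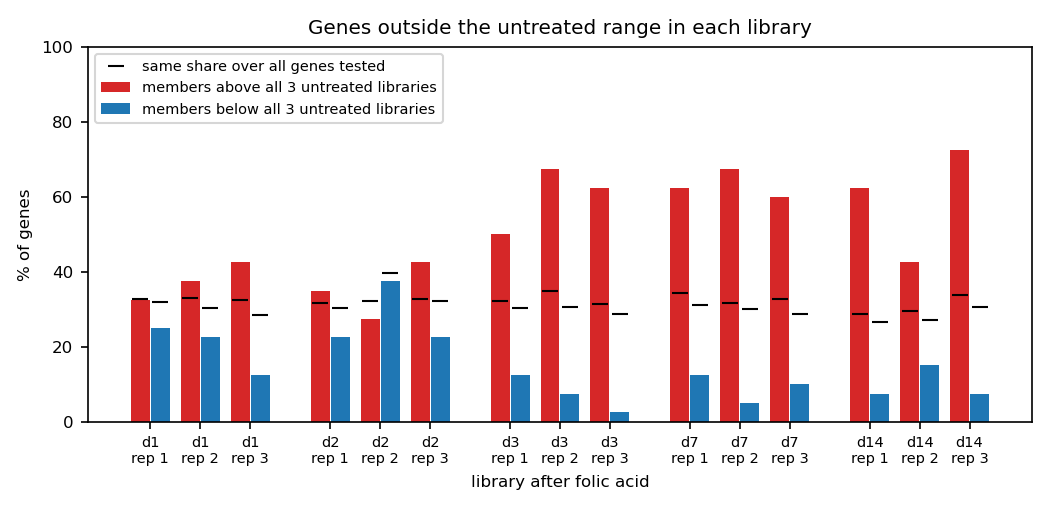
Percent of the 40 genes that lay above or below all 3 untreated libraries, for each of the 15 libraries after folic acid (ticks, the same for all 16824 genes tested). In the libraries of days 3 and 7 the members above the untreated range number 20 to 27 of 40, against 11 to 17 on days 1 and 2.

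Between consecutive times no member passed the test, by edgeR, in any of the 4 steps. Members with an unadjusted p under 0.05 numbered 6 of 40 from day 1 to day 2, 9 from day 2 to day 3, 1 from day 3 to day 7 and 3 from day 7 to day 14. Such a p was held by 13.4, 15.5, 10.1 and 9.44% of all genes in these steps. In all genes these steps gave few calls too: 0.0416% rose and 0.0178% fell from day 1 to day 2, and 0.220% and 0.0297% from day 2 to day 3. From day 3 to day 7 these were 0.0178% and 0%, and from day 7 to day 14 0.00594% and 0.0119%. DESeq2 called 2, 2, 0 and 1 members in the 4 steps, among them Ifitm3 (down to day 2 and up to day 3) and Mx1 (up to day 14). The share of all genes that DESeq2 called in these steps was not computed. The step from day 2 to day 3 had a median log2 fold change of 0.77 over the 40, against 0.02 over all genes, and 11 of the 40 did not overlap upward, against 9.0% of all genes, and 1 downward, against 6.56%. The other steps had medians of -0.02, -0.07 and -0.22. From day 1 to day 2, 1 member did not overlap upward and 2 downward, where 5.87% and 7.96% of all genes did so. These counts were 1 and 1 from day 3 to day 7 (7.24% and 7.33% of all genes) and 2 and 2 from day 7 to day 14 (6.10% and 6.33%). The F test for any difference across the 6 groups was passed by 10 of the 40 (25%), against 19.7% of all genes. They are Gbp3, Gbp2, Ifit2, Ifih1, Zbp1, Rsad2, Mx1, Xaf1, Ifitm3 and Ifi44.

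In comparisons of late with early days, added after the values were seen, members that rose were again few and none fell. The pairs of days were those on which Ifitm3, Ifi44 or Xaf1 lay on opposite sides of untreated kidney. From day 2 to day 14, 4 of the 40 rose (Mx1, Ifitm3, Ifi44 and Xaf1), against 4.68% of all genes, and from day 1 to day 14 also 4 (Mx1, Zbp1, Ifi44 and Xaf1), against 4.63%. From day 1 to day 7 only Xaf1 rose, against 2.66% of all genes, and from day 2 to day 7 Ifitm3 and Xaf1 did, against 2.77%. Of all genes, 4.74% fell from day 2 to day 14, 3.43% from day 1 to day 14, 1.85% from day 1 to day 7 and 2.44% from day 2 to day 7.

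**Figure D3:**
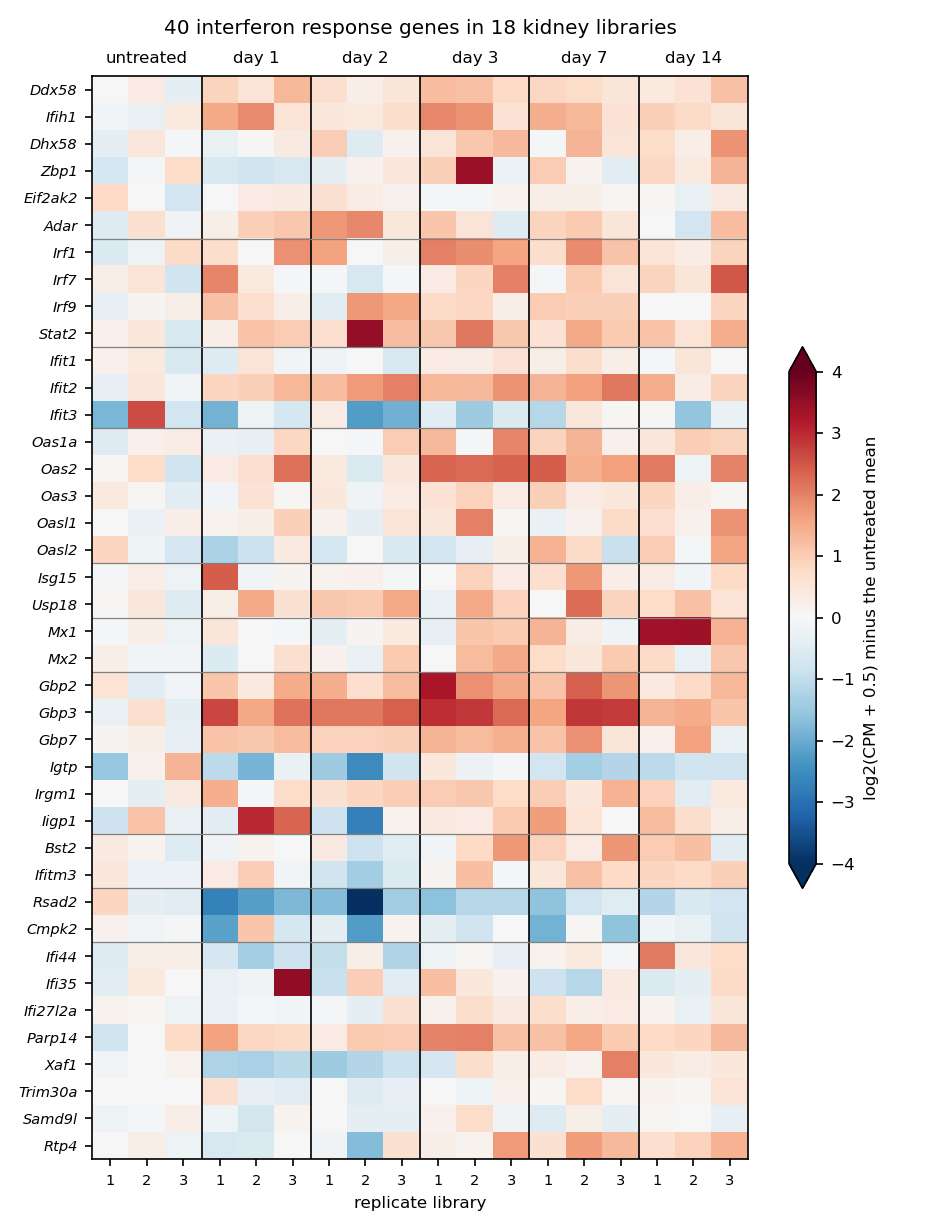
Log2(CPM + 0.5) minus the untreated mean for the 40 genes, grouped by role, in the 18 libraries (red, higher; blue, lower; colours end at 4 in either direction). Gbp3 is red in all 15 libraries after folic acid and Rsad2 blue in all 15, while Mx1 is red chiefly on day 14.

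Guanylate-binding proteins and immunity-related GTPases are large GTPases that attack the vacuoles and membranes of intracellular pathogens. Gbp3 (ENSMUSG00000028268) rose on days 1, 2, 3 and 7, more often than any other member. It was at 0.87, 2.14 and 0.814 CPM in untreated kidney, 10.2, 4.43 and 7.1 on day 1 and 6.83, 6.76 and 8.23 on day 2. On day 3 it was at 12.5, 11.4 and 7.58 CPM, on day 7 at 4.47, 11.8 and 11.3, and on day 14 at 3.86, 4.22 and 3.1. All 15 libraries after folic acid lay above the 3 untreated ones. Against untreated kidney the log2 fold change was 2.46 (SE 0.47, edgeR adjusted p = 0.00206) on day 1 and 2.47 (SE 0.48, adjusted p = 0.00206) on day 2. It was 3.00 (SE 0.48, 7.99-fold, adjusted p = 0.000898) on day 3 and 2.81 (SE 0.48, 7-fold, adjusted p = 0.00148) on day 7. These 4 calls passed in every fit that left out 1 library.

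Gbp2 (ENSMUSG00000028270) rose on days 3 and 7. Its levels were 1.36, 0.452 and 0.689 CPM in untreated kidney, 11.9, 4.09 and 3.15 on day 3, and 2.3, 6.27 and 3.89 on day 7. Both days lay above the untreated libraries without overlap, and day 3 replicate 1 was the highest of all. Its log2 fold change was 2.95 (SE 0.64, 7.75-fold, edgeR adjusted p = 0.00855) on day 3 and 2.33 (SE 0.63, 5.04-fold, adjusted p = 0.0288) on day 7. The day 3 call was lost without untreated replicate 2 (2.61) or day 3 replicate 1 (2.13), and the day 7 call without untreated replicate 2 (2.01) or 3 (2.22) or day 7 replicate 2 (1.91) or 3 (2.38). Gbp7 (ENSMUSG00000040253) was at 11.6, 12.8 and 8.52 CPM in untreated kidney and at 28.6, 26.9 and 29.7 on day 3. It rose on day 3 by a log2 fold change of 1.37 (SE 0.41, 2.58-fold, adjusted p = 0.0467), and this call was lost whichever of the 6 libraries was left out (1.2 to 1.48). Its day 1 libraries (24.6, 23.3 and 26.5 CPM) and day 2 libraries (21, 20.8 and 21.5 CPM) also lay above the untreated ones, without a call. By day 14 the libraries were at 12.6, 34.3 and 8.89 CPM and overlapped untreated kidney. The other 3 GTPases, Igtp, Irgm1 and Iigp1, passed no test. Igtp had a log2 fold change below 0 on all 5 days (-2.11 to -0.38). Its highest library was untreated replicate 3, at 12.0 CPM against a median of 2.29 CPM, with 22.1% of its CPM summed over the 18. Irgm1 had a log2 fold change above 0 on all 5 days (0.39 to 1.00). Iigp1 was highest in day 1 replicate 2, at 26.5 CPM, against a median of 3.69 CPM over the 18 libraries.

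IFIT proteins bind viral RNA and hold back its translation. Ifit2 (ENSMUSG00000045932) rose on days 2, 3 and 7. It was at 1.47, 2.9 and 1.82 CPM in untreated kidney, 5.42, 7.61 and 9.49 on day 2, 5.8, 5.57 and 8.16 on day 3, and 5.89, 7.23 and 10.4 on day 7. Its day 1 libraries, at 4.02, 4.3 and 5.71 CPM, lay above the untreated ones too, but the difference did not pass. It rose by a log2 fold change of 1.85 (SE 0.42, 3.6-fold, edgeR adjusted p = 0.00727) on day 2, 1.64 (SE 0.42, adjusted p = 0.0219) on day 3 and 1.91 (SE 0.42, adjusted p = 0.00912) on day 7. The day 2 call passed in every fit that left out 1 library; day 3 was lost without untreated replicate 1 (1.44) or 3 (1.54) or day 3 replicate 3 (1.45), and day 7 without untreated replicate 1 (1.71). Ifit1 and Ifit3 passed no test. Ifit1 stayed between 1.19 and 3.81 CPM with log2 fold changes from -0.39 to 0.41. Ifit3 had its highest level, 13.8 CPM, in untreated replicate 2, against a median of 1.02 CPM, and that library held 43.7% of its CPM summed over the 18. Ifit3 has a near-identical copy, Ifit3b, so its reads may be split or dropped in counting.

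**Figure D4:**
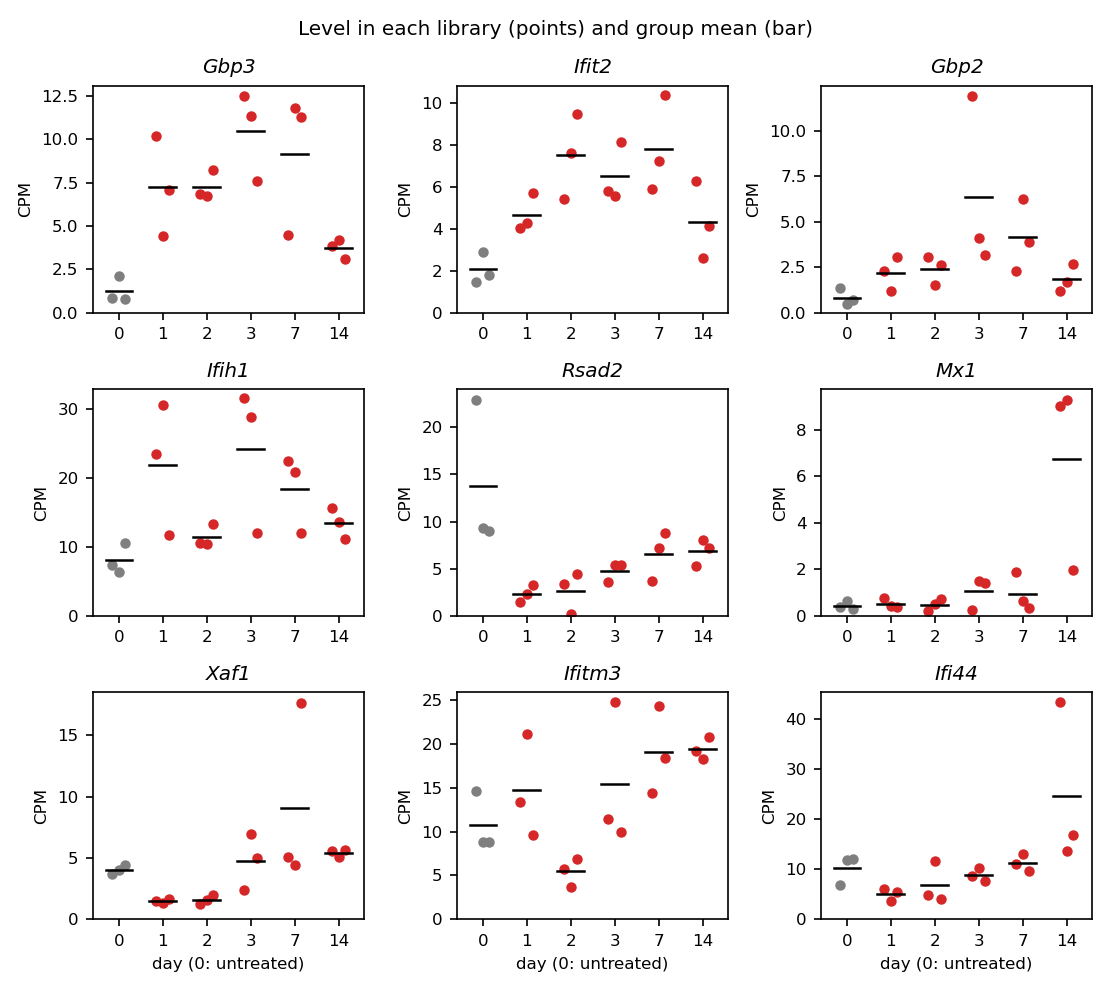
CPM of 9 members in each library by day (points; day 0 is untreated; bar, mean of 3). Gbp3, Gbp2, Ifit2 and Ifih1 stand above untreated on day 3, Rsad2 and Xaf1 below it on days 1 and 2, and Mx1 above it on day 14.

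Of the sensors, Ifih1 (MDA5) and Ddx58 (RIG-I), the helicases that detect double-stranded RNA in the cytosol, both rose on days 1 and 3. Ifih1 (ENSMUSG00000026896) was at 7.34, 6.33 and 10.6 CPM in untreated kidney, 23.5, 30.7 and 11.8 on day 1, 10.7, 10.5 and 13.3 on day 2, and 31.7, 28.9 and 12.1 on day 3. The third replicate of days 1 and 3 lay close to the untreated range while the other two stood far above it, and day 2 overlapped untreated kidney. Ifih1 had a log2 fold change of 1.44 (SE 0.40, 2.72-fold, edgeR adjusted p = 0.0266) on day 1 and 1.58 (SE 0.40, 2.99-fold, adjusted p = 0.0219) on day 3. Both calls were lost without untreated replicate 1 or 2, or without replicate 1 or 2 of the day itself (1.13 to 1.5). Ddx58 (ENSMUSG00000040296) was at 13.7, 17.1 and 10.3 CPM in untreated kidney, 25.3, 19.6 and 34.4 on day 1, and 31.9, 31 and 23.7 on day 3. Both days lay above untreated kidney without overlap. Ddx58 had a log2 fold change of 0.95 (SE 0.29, 1.93-fold, adjusted p = 0.0457) on day 1 and 1.07 (SE 0.30, 2.1-fold, adjusted p = 0.0323) on day 3. The day 1 call was lost without any untreated library or without day 1 replicate 1 or 3 (0.71 to 1.14), and the day 3 call without untreated replicate 1 or 3 or day 3 replicate 1 or 2 (0.88 to 1.05). With all libraries kept, the day 1 call of Ddx58 also failed in 7 of 8 alternatives and passed only with DESeq2, and its day 3 call failed in 3 of 8 (no low-count filter, the replicate block and the fit of the 2 groups alone).

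Zbp1 (ENSMUSG00000027514), which binds Z-form nucleic acid and can trigger cell death, differed across the 6 groups (edgeR adjusted p = 0.023) without a call on any day against untreated. It was at 0.0544, 0.38 and 1 CPM in untreated kidney, 0.0875, 0.0225 and 0.0795 on day 1, and 1.23, 9.36 and 0.262 on day 3. Its lowest library was day 1 replicate 2, but untreated replicate 1 lay below day 1 replicates 1 and 3, so day 1 overlapped untreated kidney. Day 3 replicate 2 alone held 48.1% of the Zbp1 CPM summed over the 18. Without that library the adjusted p was 0.133, and it was 0.059 and 0.0514 without day 1 replicate 2 or 3. Dhx58, Eif2ak2 (the kinase PKR) and Adar, which edits adenosine in double-stranded RNA, passed no test. Eif2ak2 stayed between 7.02 and 22 CPM and had log2 fold changes of -0.13 to 0.25.

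Among the transcription factors only Stat2 (ENSMUSG00000040033), a factor of type I signalling, was called, and only on day 2. It was at 5.44, 6.42 and 2.76 CPM in untreated kidney and at 7.4, 57.5 and 11.6 on day 2. The log2 fold change of 2.36 (SE 0.62, edgeR adjusted p = 0.0157) rested on day 2 replicate 2, the shallowest library: without it the value was 0.95 and the call was lost. It was lost also without untreated replicate 1 (2.41) or 3 (2.05). Irf1, Irf7 and Irf9 passed no test. Irf1, which interferon gamma induces through a GAS, had a log2 fold change of 2.02 on day 3 and Irf7, the amplifier of type I interferon production, one of 1.5.

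OAS enzymes make an oligoadenylate that activates an RNA-degrading enzyme. Oas2 (ENSMUSG00000032690) rose on day 3. It was at 1.09, 2 and 0.376 CPM in untreated kidney and at 7.13, 6.71 and 7.19 on day 3, all 3 above untreated kidney. Oas2 rose by a log2 fold change of 2.56 (SE 0.73, 5.9-fold, edgeR adjusted p = 0.0389). It was lost in 5 of the 6 fits that left out a library (2.14 to 2.59), and kept only without untreated replicate 2. Its day 7 libraries (7.63, 3.6 and 4.2 CPM) lay above untreated kidney without a call, and day 14 (5.9, 0.811 and 5.5 CPM) overlapped it. Oas1a, Oas3 and Oasl1 had log2 fold changes above 0 on all 5 days and passed no test, and Oasl2 ranged from -0.65 on day 2 to 0.92 on day 14. Oas1a belongs to a cluster of near-identical genes, so its counts are uncertain.

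The ISG15 system, the ubiquitin-like modifier Isg15 and Usp18, the protease that removes it and restrains receptor signalling, passed no test. Isg15 was at 7.57 CPM in day 1 replicate 1 and at a median of 1.25 CPM over the 18 libraries. Usp18 had log2 fold changes between 1.19 and 1.81 on the 5 days, with a highest level of 4.53 CPM.

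Mx1 (ENSMUSG00000000386), a GTPase that blocks influenza virus and is defective in most inbred mouse strains, was the only member that rose on day 14. It was at 0.381, 0.618 and 0.313 CPM in untreated kidney and at 9.02, 9.29 and 1.96 on day 14, from 208, 229 and 48 reads. Days 1 and 2 ranged from 0.204 to 0.787 CPM. The day 14 log2 fold change was 3.90 (SE 0.85, 14.9-fold, edgeR adjusted p = 0.0231), and the F test across groups gave an adjusted p of 0.00213. The day 14 call was lost without any of the 3 untreated libraries or day 14 replicate 1 (3.64 to 4.26), while the F test passed in all 18 fits that left out a library. Mx2 passed no test and reached at most 1.78 CPM, in day 3 replicate 3.

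Rsad2 (ENSMUSG00000020641), viperin, makes a chain-terminating nucleotide, and it fell on days 1 and 2. It was at 22.9, 9.3 and 9.02 CPM in untreated kidney, 1.49, 2.32 and 3.22 on day 1, and 3.38, 0.169 and 4.46 on day 2. From day 3 on its libraries lay between 3.62 and 8.81 CPM, still under the lowest untreated one, with no call. In the fit, Rsad2 had a log2 fold change of -2.54 (SE 0.63, edgeR adjusted p = 0.0134) on day 1 and -2.28 (SE 0.63, adjusted p = 0.0211) on day 2, 5.82-fold and 4.84-fold lower. The day 1 call was lost without untreated replicate 1 (-1.96), its highest library, or day 1 replicate 1 (-2.31) or 2 (-2.52), and the day 2 call without untreated replicate 1 (-1.71). Cmpk2, a mitochondrial nucleotide kinase, passed no test, with log2 fold changes from -1.06 to 0.01.

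Of the membrane proteins, Ifitm3 (ENSMUSG00000025492), which stops viruses from leaving endosomes, differed across groups (edgeR adjusted p = 0.0281). It was at 14.7, 8.82 and 8.83 CPM in untreated kidney, 13.3, 21.2 and 9.62 on day 1, 5.75, 3.72 and 6.92 on day 2, and 19.3, 18.2 and 20.8 on day 14. Day 1 overlapped untreated kidney, while day 2 lay below untreated kidney and day 14 above it, each without overlap and without a call of its own. The F test was lost without day 2 replicate 1 (adjusted p = 0.0727) or 2 (0.0847). Per kilobase of exon, Ifitm3 was the most abundant member in untreated kidney, at 15.9 CPM per kb, next to Samd9l at 15.4, while Mx1, Mx2 and Dhx58 were the lowest at 0.116, 0.0852 and 0.0731. Bst2 (tetherin) passed no test; its log2 fold change was 1.76 on day 7.

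Xaf1 (ENSMUSG00000040483), which promotes cell death by opposing XIAP, and Ifi44 were low on day 1 and high on day 14. Xaf1 was at 3.7, 3.97 and 4.45 CPM in untreated kidney, 1.44, 1.33 and 1.63 on day 1, 1.2, 1.52 and 2 on day 2, and 5.55, 5.11 and 5.62 on day 14. Days 1 and 2 lay below untreated kidney and days 7 and 14 above it, with no overlap and no call against untreated kidney. Its highest group mean was on day 7, at 1.94 CPM per kb of exon, against 1.16 on day 14 and 0.861 in untreated kidney. Day 7 replicate 3 was its highest library, at 17.7 CPM. The F test across groups was passed (edgeR adjusted p = 0.00524, and in all 18 fits that left out a library). Ifi44 (ENSMUSG00000028037) was at 6.8, 11.8 and 12 CPM in untreated kidney, 6.04, 3.55 and 5.33 on day 1, and 43.4, 13.6 and 16.8 on day 14. Its F test gave an adjusted p of 0.0108, and 0.0907 without day 14 replicate 1. Parp14 (ENSMUSG00000034422), an ADP-ribosyltransferase, rose on day 3, from 4.19, 7.49 and 13.5 CPM in untreated kidney to 31.7, 31.8 and 17.8. This was a log2 fold change of 1.69 (SE 0.40, 3.24-fold, adjusted p = 0.0144), lost without untreated replicate 1 or 2 or day 3 replicate 1 or 2 (1.36 to 1.60). Ifi35, Ifi27l2a, Trim30a, Samd9l and Rtp4 passed no test. Ifi35 was at 24.3 CPM in day 1 replicate 3, which held 44.7% of its CPM summed over the 18 libraries. Rtp4 reached at most 4.99 CPM.

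In all, 15 of the 40 passed at least 1 test and 25 passed none. The share of all genes that passed at least 1 of these tests was not computed, so the 15 cannot be set against it. The F test across groups alone was passed by 19.7% of all genes. The 25 had a median log2 fold change of 0.25, 0.08, 0.77, 0.79 and 0.52 on days 1, 2, 3, 7 and 14, with extremes of -2.49 (Ifit3 on day 1) and 2.42 (Ifi35 on day 1). Over the 5 days 21 of the 40 were above 0 on every day, and 3 below 0 on every day (Rsad2, Ifit3 and Igtp). The highest group mean lay on day 3 for 14 members, day 7 for 9, day 14 for 6, days 1 and 2 for 4 each, and in untreated kidney for 3. For the counts by sign and by highest mean, shares of all genes were not computed either. A single library held over 25% of the summed CPM for 5 of the 40 (12.5%), against 15.1% of all genes. Of the 40, 7 share exon sequence with a gene on the other strand and 2 with a gene on the same strand, and whether counting used strand is not stated. None of these 9 passed a test.

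Upstream of these genes, transcripts of the interferons themselves were scarce. Of 8 ligand genes found, only Ifnk, a keratinocyte type I interferon, passed the low-count filter, at 0.189 to 2.19 CPM and without a call. Ifnb1, Ifna2, Ifna4, Ifne, Ifnl2 and Ifnl3 had 0 reads over all 18 libraries, and Ifng had 3. The interferon alpha genes are near-identical copies of each other, and alignments that were not unique were not counted to a gene.

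Both chains of the interferon gamma receptor rose, and no chain of the type I receptor had a call. Of 6 receptor genes tested, 2, 2, 1, 1 and 1 rose on days 1, 2, 3, 7 and 14. Of all genes, 5.09, 7.19, 4.18, 3.87 and 1.24% did. The median log2 fold change of the 6 was 1.16, 0.99, 0.84, 0.71 and 0.66, so chains without a call also lay above 0. Ifngr1 (ENSMUSG00000020009), the ligand-binding chain, was at 6.8, 6.85 and 7.77 CPM in untreated kidney, 23, 32.3 and 19.7 on day 1, and 37.4, 48.3 and 30.6 on day 2. It was at 13.6, 14.7 and 43 CPM on day 14. All 15 libraries after folic acid lay above untreated kidney, and it rose on all 5 days. The log2 fold change was 1.81 (SE 0.40), 2.44 (SE 0.41), 2.00 (SE 0.40), 1.98 (SE 0.40) and 1.74 (SE 0.40) in turn. The edgeR adjusted p was 0.00577, 0.000628, 0.00483, 0.00477 and 0.0324. The day 14 call was lost without any untreated library or day 14 replicate 3 (0.99 to 1.79), and with limma-voom, the replicate block or the fit of the 2 groups alone. The other 4 passed in every fit that left out a library. Ifngr2, the signalling chain, was at 6.8, 5.66 and 4.7 CPM in untreated kidney, 11.2, 28.2 and 27.1 on day 1, and 22.1, 10.3 and 14.7 on day 2. It rose on day 1 (log2 fold change 1.96, SE 0.40, adjusted p = 0.00329) and day 2 (1.47, SE 0.40, adjusted p = 0.0185), the latter lost without untreated replicate 2 or 3 or day 2 replicate 1 (1.13 to 1.44). Ifnar1 stayed between 13.2 and 31.5 CPM and Ifnar2 between 2.37 and 9 CPM. Ifnlr1 and Il10rb, the chains of the type III receptor, passed no comparison with untreated kidney, with levels of 0.487 to 7.94 and 2.78 to 13.9 CPM. Whether the receptors differ from one another in their change was not tested.

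**Figure D5:**
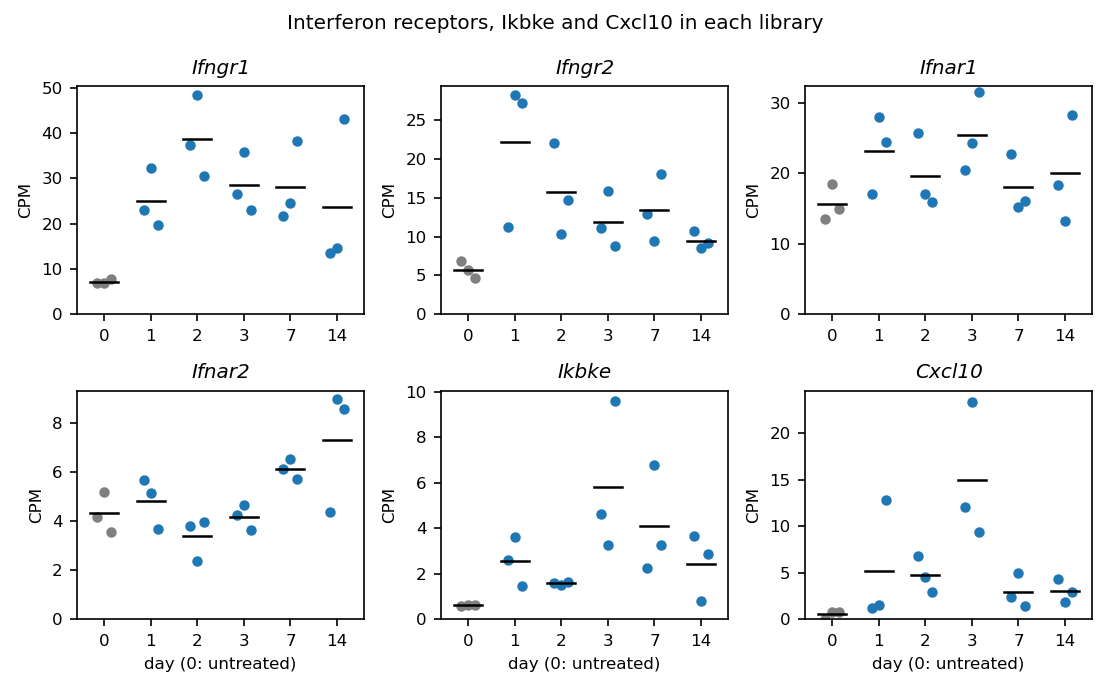
CPM of Ifngr1, Ifngr2, Ifnar1, Ifnar2, Ikbke and Cxcl10 in each library by day (points; day 0 is untreated; bar, mean of 3). All 15 libraries after folic acid lie above the untreated ones for Ifngr1, from 13.6 to 48.3 CPM against 6.8 to 7.77.

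Of 17 signalling genes tested, 3 rose on day 1, 3 on day 2, 1 on day 3, 3 on day 7 and none on day 14, where 5.09, 7.19, 4.18, 3.87 and 1.24% of all genes rose. None fell, where 5.56, 5.98, 3.43, 3.85 and 0.309% of all genes did. Ikbke, a kinase that phosphorylates IRF3, was at 0.598, 0.618 and 0.626 CPM in untreated kidney and 4.64, 3.26 and 9.6 on day 3. Its log2 fold change was 2.05 (SE 0.61, edgeR adjusted p = 0.0363) on day 1, 3.24 (SE 0.63, adjusted p = 0.00368) on day 3 and 2.73 (SE 0.62, adjusted p = 0.0105) on day 7. The day 1 call was lost in 5 of 6 fits that left out a library, kept only without day 1 replicate 3, and the day 7 call without day 7 replicate 2 (2.15). Jak1 rose on day 1 (1.04) and day 2 (0.94), and Ptpn11, a phosphatase of the pathway, likewise (1.2 and 0.95). Mavs, the adaptor of Ddx58 and Ifih1, rose on day 2 (1.19). The Jak1 calls were kept in 3 of 6 fits that left out a library on each day, those of Ptpn11 in 6 and 3, and that of Mavs in 5. Samhd1, which breaks down nucleotides, rose on day 7 (1.41), from 11.6, 19.1 and 10.6 CPM to 57.6, 25.1 and 27.5, a call kept in 3 of 6 such fits (0.93 without day 7 replicate 1). Tmem173 (STING), the adaptor for cytosolic DNA, rose on day 7 (3.25), from 0.381, 2.02 and 0.0626 CPM to 14.4, 7.52 and 3.09, a call lost without untreated replicate 1 (2.91) or day 7 replicate 1 (2.59).

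A further 52 interferon-stimulated genes were tested outside the 40. They gave 3 that rose and 1 that fell on day 1, 5 and 4 on day 2, and 6, 5 and 1 that rose on days 3, 7 and 14, where none fell. Of all genes, 5.09, 7.19, 4.18, 3.87 and 1.24% rose on the 5 days and 5.56, 5.98, 3.43, 3.85 and 0.309% fell. The median log2 fold change of the 52 was 0.14, 0.06, 0.88, 0.82 and 0.73 on the 5 days. On day 3 the largest were the chemokines Cxcl10 (4.79, SE 0.99, edgeR adjusted p = 0.00613), Ccl5 (4.62, SE 1.00, adjusted p = 0.0086) and Cxcl11 (3.49, SE 0.76, adjusted p = 0.00839), which draw T cells and other leukocytes. Cxcl10 was at 0, 0.808 and 0.752 CPM in untreated kidney and 12.1, 23.4 and 9.37 on day 3. These 3 calls passed in every fit that left out 1 library, as did Ccl5 on day 7 (4.25) except without untreated replicate 3. Next on day 7 were the GTPase Gbp2b (2.38, SE 0.66, adjusted p = 0.0327), at 3.62, 6.06 and 3.54 CPM against at most 1.45 in untreated kidney, and Ifi27 (2.14, SE 0.60, adjusted p = 0.0355). Each was kept in 2 of 6 fits that left out a library, and Ifi27, with 37.7 CPM in day 7 replicate 2, was at 0.93 without it. Ifi203, a DNA-binding protein of the PYHIN family, ran the other way on the first days. It was at 24.8, 31.8 and 23.9 CPM in untreated kidney, 4.99, 2.65 and 6.74 on day 1, 4.97, 5.41 and 4.11 on day 2, 13.4, 27.7 and 17.4 on day 3, and 30.2, 37.2 and 41 on day 7. It fell on day 1 (-2.49, SE 0.35, adjusted p = 0.000123) and day 2 (-2.48, SE 0.35, adjusted p = 0.000141) in every fit that left out a library. It rose from day 2 to day 3 (2.02, SE 0.35, adjusted p = 0.0166), lost without day 2 replicate 2 or day 3 replicate 2 (2.09 and 1.69).

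Several other calls among these 52 rested on single libraries. Trim21 on day 1 (3.4) had 39.7 CPM in replicate 1 and 0.945 and 1.45 in the others, and was at -0.15 without replicate 1. Cxcl10 on day 1 (3.27) was at 1.34 without replicate 3, and Oas1c on day 2 (3.44) at 1.53 without replicate 3. Tor3a on day 2 (3.33) was at 67.4 CPM in replicate 2, and at 1.99, still a call, without it. Mlkl, the executor of necroptosis, rose on day 1 (3.25), to 1.57, 4.05 and 1.17 CPM from at most 0.544, and this was lost in 4 of 6 fits that left out a library. Ddx60 fell on day 2 (-2.62), a call kept in 3 of 6 such fits, and Tgtp2 fell from 15, 28 and 16 reads in the untreated libraries to 0, 1 and 0 on day 2, so no fold is given. Cxcl10 also rose on day 2 (3.15), kept only without day 2 replicate 3. Slfn8, which rose on day 14 (2.58), was at 6.59, 3.65 and 3.83 CPM there and at most 0.94 in untreated kidney, and was kept only without day 14 replicate 2.

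Transcripts of leukocytes moved in the same period. Beside the marker counts below, 5.09, 7.19, 4.18, 3.87 and 1.24% of all genes rose on days 1, 2, 3, 7 and 14. Of all genes, 5.56, 5.98, 3.43, 3.85 and 0.309% fell on these days. Of 14 macrophage and monocyte markers tested, 3, 3, 7, 11 and 7 rose on days 1, 2, 3, 7 and 14, and 2 fell on each of days 1 and 2 (Csf1r and Mertk). Their summed level was 44.4 to 90.3 CPM in untreated kidney, 72.1 to 109 on day 1, 66.9 to 90.3 on day 2, 160 to 223 on day 3, 279 to 435 on day 7 and 210 to 409 on day 14. Itgam, the integrin of myeloid cells, had a log2 fold change of 5.06 on day 3 and 6.09 on day 7. The 7 markers of all leukocytes summed to 19.8 to 29.2 CPM in untreated kidney, 27.8 to 79.9 on day 1 and 20.3 to 49.0 on day 2. Their sum was 46.6 to 85.2 CPM on day 3, 68.9 to 88.9 on day 7 and 54.7 to 92.0 on day 14, so days 1 and 2 overlapped day 3. T and natural killer cell markers were low throughout: their sum was 3.07 to 16.5 CPM in untreated kidney and 3.52 to 6.63 on days 3 and 7, and Gzma, Gzmb and Prf1 had 8, 4 and 16 reads over all 18 libraries. Of 7 tested, 1 (Trac, a T cell receptor chain) fell on days 1, 2 and 7, and of 3 B and plasma cell markers 1 (Jchain) fell on day 2. Plasmacytoid dendritic cell markers, 4 tested, gave no call, at sums of 1.57 to 4.26 CPM in untreated kidney and 2.2 to 4.17 on day 3. Neutrophil markers gave none either, with 60.2 CPM in day 2 replicate 2 and 5.68 to 14.1 in all other libraries. Endothelial markers fell, 4, 6, 6 and 1 of 10 on days 1, 2, 3 and 7. Of 16 tubule and podocyte markers, 8, 9, 9, 5 and 1 fell on days 1, 2, 3, 7 and 14, and 2, 2, 2, 2 and 1 rose. Their sum was 4907 to 5195 CPM in untreated kidney, 3392 to 3546 on day 1, 2358 to 2482 on day 2, 2352 to 2677 on day 3, 2387 to 2920 on day 7 and 2939 to 4081 on day 14. These 16 include Havcr1 and Lcn2, which are known as markers of tubule injury, so the sum does not measure tubule content alone. The part of these cell types in the changes of the interferon response genes was not tested.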

How the data were processed

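Total RNA of 18 kidney samples was extracted with TRIzol, and libraries were made from 10 ng each with NuGEN SPIA reagents, per the labels. The submitters' processing notes name cutadapt, TopHat2 2.07, HTSeq and DESeq as tools and NCBIM37 as the mouse build. The deposited values used here are raw counts, reads per gene for 37991 identifiers, and 5 tallies of reads on no gene that were left out (among them alignments that were not unique, 18.4 to 28.5% of all counted). Symbols came from GENCODE M21 by gene identifier (32919 matched, 5072 did not). Exon lengths and overlaps also came from M21, a later build than that of the counts, so they are approximate. Strand of counting and the authors' filters are not given in the sources used here.

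The quasi-likelihood F test of edgeR 4.0.16 was run on these counts, with TMM and filterByExpr, in 1 fit over 6 groups of 3, with Benjamini-Hochberg adjustment over 16824 genes and calls at an adjusted p under 0.05. There were 9 comparisons and 1 F test across the groups. All p-values are two-sided. Another 4 comparisons (days 7 and 14 against days 1 and 2) were added after the values were seen. They were the pairs of days on which some member lay wholly above and wholly below untreated kidney. The members, role lists, pathway lists (88 of 92 genes found) and markers (85 of 85 found) were chosen with earlier results of these data known. Members called in any test were given with library values for untreated kidney and for chosen days, in most cases not for all days. From the pathway lists, ligands and receptors that passed the filter and the 3 largest calls in each direction of each list were named. A result withheld for evaluation is not reported here. Alternatives used library totals, DESeq2 1.42.0 or its size factors, limma-voom (limma 3.58.1), no filter, a replicate block, no mitochondrial genes, only the 2 groups of a comparison, or all libraries but 1. On simulated counts the test missed changes of small fold, so a gene without a call may still differ. Software was R 4.3.3, matplotlib 3.10.9, pandas 2.3.3 and Python 3.11.15.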

Additional observations from a re-analysis of the deposited data

Results flagged for a closer look

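Some members were lower on day 1 or 2 than on day 7 or 14, and the difference between those days passed the test although neither day need differ from untreated kidney by a call. Mx1 was not low on the early days: its means were 0.140 and 0.127 CPM per kb of exon on days 1 and 2, against 0.116 in untreated kidney. These 4 comparisons were chosen after the values were seen, each shares a day's libraries with 2 of the others, and p-values are adjusted within each over all genes. They are the pairs of days on which Ifitm3, Ifi44 or Xaf1 lay wholly above and wholly below untreated kidney. For these 3 genes the test thus used values that had chosen it, and a pass adds no support for the pattern.

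By edgeR, Mx1 was higher on day 14 than on day 2 by a log2 fold change of 3.84 (adjusted p = 0.00959) and than on day 1 by 3.68 (adjusted p = 0.00968); the latter was lost without day 1 replicate 2 (3.55). Ifi44 was higher on day 14 than on day 1 by 2.31 (adjusted p = 0.00496) in every fit that left out a library, and than on day 2 by 1.88 (adjusted p = 0.0169), lost without day 2 replicate 1 (1.69) or 3 (1.61) or day 14 replicate 1 (1.2). Ifitm3 was higher on day 14 than on day 2 by 1.81 (adjusted p = 0.00961) in every such fit, and on day 7 than on day 2 by 1.78 (adjusted p = 0.0164), lost without day 2 replicate 2 (1.60) or day 7 replicate 2 (1.56). Xaf1 was higher on day 7 than on day 1 by 2.63 (adjusted p = 0.00685) and than on day 2 by 2.53 (adjusted p = 0.0105), both lost without day 7 replicate 3 (1.69 and 1.60). On day 14 it was higher by 1.88 than on day 1 (adjusted p = 0.0278) and by 1.78 than on day 2 (adjusted p = 0.0368), but each was lost in all 6 fits that left out a library (1.81 to 1.96 and 1.60 to 2.02). Zbp1 was higher on day 14 than on day 1 by 4.19 (adjusted p = 0.0438), also lost in all 6 (3.77 to 4.48).

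Ifitm3, Ifi44 and Xaf1 were the 3 of 40 members (7.5%) whose libraries lay wholly below untreated kidney on some day and wholly above it on another. For these 3 the low days were 1 or 2 and the high days 7 or 14. Over all genes, 479 of 16824 (2.85%) lay wholly below it on some day and wholly above it on another, in either order of days.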

How the results depend on the processing

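Calls of single members numbered 30. No alternative reversed the sign of any of the 20 made against untreated kidney. The other 10 are F tests across groups, which have no sign and so could not reverse. Of the 30, 8 passed in every alternative and every fit that left out a library (Gbp3 on days 1, 2, 3 and 7, Ifit2 on day 2, and the F tests of Gbp3, Mx1 and Xaf1), and 14 in every alternative that kept all libraries. Shares of all genes called were not computed for the alternatives or for fits that left out a library. The member counts below therefore cannot be set against all genes. The count of members called on day 7 was 3, and 14 with library totals alone, 7 with DESeq2. Library totals shifted the median log2 fold change of all genes by 0.14, 0.25, 0.58, 0.67 and 0.32 on days 1, 2, 3, 7 and 14, and the member medians were then 0.59, 0.40, 1.63, 1.69 and 1.07. On day 1 limma-voom called 2; on day 2 the fit of the 2 groups alone called 2; on day 14 DESeq2 called 2, limma-voom 0 and the 2 groups alone 0. From day 1 to day 2 DESeq2 called 2 (Ifitm3 -1.37, Iigp1 -3.20) and no filter 1 (Iigp1), from day 2 to day 3 DESeq2 called 2 (Ifitm3 1.45, Oas2 2.50), and from day 7 to day 14 DESeq2 called 1 (Mx1 2.81). Across the groups DESeq2 called 16 and limma-voom 6, against 10. The cause of these differences was not tested, except that the fit of 2 groups has fewer libraries.

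Without each library in turn, the counts ran from 1 to 4 on day 1, 3 to 6 on day 2, 2 to 5 on day 3, 2 to 3 on day 7, 0 to 1 on day 14, 0 to 0 in each of the 4 consecutive steps and 8 to 11 across the groups. Equal replicate numbers carried no pairing: over 45 pairs of same-numbered libraries the correlation of deviations from the group means was -0.05 to 0.04. With the replicate block the counts were 3, 4, 6, 3 and 1 on the 5 days, 0 in each consecutive step and 7 across the groups. Ddx58 on day 1 passed only with DESeq2 among the 8 alternatives that kept all libraries. The block ended the calls of Ddx58 on days 1 and 3, Oas2 on day 3, and the F tests of Ifitm3, Ifih1 and Zbp1. Of the other pathway genes, Trim21 on day 1 changed sign without day 1 replicate 1 (-0.15; its range over single libraries left out was -0.15 to 3.95). Depth limits members under about 1 CPM, which in the shallowest library is a handful of reads.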
